A study of Mus musculus with 21 samples.

Results

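The collagen genes of the mouse are described here in single stromal cells and in the open chromatin of sorted stromal populations of the colon. Every gene whose symbol was Col, a number, the letter a and a number, and nothing more, was taken, which gave 44 of the 31053 genes in the single-cell table. All 44 were protein-coding and were matched by gene identifier to the 21938 protein-coding genes of the annotation. The rule reads gene symbols only, but it was set with earlier results of these data known.

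The study mapped accessible chromatin by ATAC-seq, which cuts and tags exposed DNA, in 4 populations of colon stroma, and counted transcripts of single stromal cells in 1 droplet library. It is about stromal cells that are regulated by the kinase Map3k2. For ATAC-seq the labels name CD34 SP, CD138 (labelled CD34-CD138+), Myofibroblast and MRISC, the stromal cells that Map3k2 regulates, each with 2 libraries from male C57BL/6 mice of 12 weeks. Their genotype and treatment are not stated in the labels, and all were sorted as gp38-positive cells without CD45, Epcam and CD31. How the mice were treated before sorting was thus not known here. The single-cell library came from wild-type female C57BL/6 colon of 12 weeks, given 2% dextran sulfate sodium (DSS, a compound that injures the colon epithelium) and taken on day 3, and its cells were labelled gp38+CD90+. The number of mice behind any library is not given. Another 12 samples, bulk RNA of mice with or without Map3k2, were not analysed here, so nothing below compares genotypes. The single-cell library and the ATAC-seq populations differed in sex, and may have differed in treatment, so levels and peaks are set side by side without a match between a cluster and a population.

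Collagens are extracellular proteins with a triple helix of chains, some made of identical chains and others of several gene products in a fixed proportion. Fibrillar collagens give connective tissue its tensile strength, the type IV chains form the sheet under epithelium, vessels and muscle cells, and the other families link fibrils, coat them or anchor cells to them. In the gut, fibroblasts and smooth muscle cells make most of this matrix, and excess of it marks fibrosis after long inflammation.

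In the single-cell library 11376 cells were kept, with 72920197 UMIs (unique molecular identifiers, each standing for 1 captured transcript molecule) and a median of 6052 UMIs per cell. Cells were grouped without the 44 collagen genes, so that the groups could not be set by them. Of the 9 clusters, 6 could be named from markers as lamina propria fibroblast-like (2035 cells), inflammation-associated fibroblast-like (1630), CD34+CD81+ fibroblast-like (1347), myofibroblast-like (1144), mesothelium-like (71) and crypt-top fibroblast-like (56). The largest clusters, of 2570 and 2472 cells, had fewer than 3 markers of any type and are called by their leading genes Cxcl13 and Hapln1. A last cluster of 51 cells mixed epithelial and immune genes and is not stromal. The sort gene Pdpn (gp38) stood between 117 and 497 CPM (a gene's UMIs scaled to the same total in every cluster) in the 8 stromal clusters, and Thy1 (CD90) between 19.9 CPM in the crypt-top fibroblast-like cells and 213 CPM in the Hapln1 cluster. Ptprc (CD45) did not exceed 0.256 CPM in any stromal cluster. Cd34 did not set the CD34+CD81+ fibroblast-like cells apart, at 644 CPM against 682 in the Cxcl13 and 621 CPM in the Hapln1 cluster. Cd81 was at 783 CPM in these cells, against 124 and 47.3 CPM in those 2 clusters and 1373 CPM in mesothelium-like cells. RNA from outside the cell, judged from epithelial transcripts, made up an estimated 10.5% of UMIs in stromal clusters, with 18.4% in the Cxcl13 cluster and 8.12% to 15.01% in the others.

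Collagen transcripts made up 944531 UMIs, or 1.30% of all UMIs of kept cells. Three-prime tags are counted once per molecule whatever the transcript length, but genes may differ in how well their 3' ends are captured, so the order given is that of captured transcripts. Col3a1, the only chain of type III collagen, led with 330383 UMIs (4531 CPM, 95% interval 4515 to 4546), followed by the type I chains Col1a2 (155219 UMIs, 2129 CPM) and Col1a1 (136798 UMIs, 1876 CPM). The type VI chains Col6a1 (888 CPM) and Col6a2 (683 CPM) came next. Col4a1 (518 CPM) and Col5a2 (361 CPM) stood below them, and Col18a1 (344 CPM), Col15a1 (309 CPM), Col4a2 (278 CPM), Col14a1 (222 CPM) and Col5a1 (187 CPM) completed the 12 members with the most UMIs. These 12 held 95.2% of the collagen UMIs, and Col3a1, Col1a2, Col1a1 and Col6a1 alone held 72.7%. Neighbours in this order had 95% Poisson intervals that did not overlap, but there was 1 library, so these intervals cover counting error only and no test between conditions was possible.

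The remaining members ranged over several orders of magnitude. In all, 19 had at least 1000 UMIs and 31 had at least 50. Another 10 had between 1 and 49 UMIs: Col4a3, Col6a6, Col9a1, Col9a3, Col11a1, Col11a2, Col17a1, Col19a1, Col25a1 and Col26a1. Col2a1 and Col9a2, known from cartilage, and Col10a1, known from the growth plate, had no UMI, and 0 of 72920197 UMIs allows up to 0.0506 CPM. Only the 31 members with at least 50 UMIs could be called higher or lower in a cluster, beside 12965 genes of all kinds that met the same minimum.

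**Figure D1:**
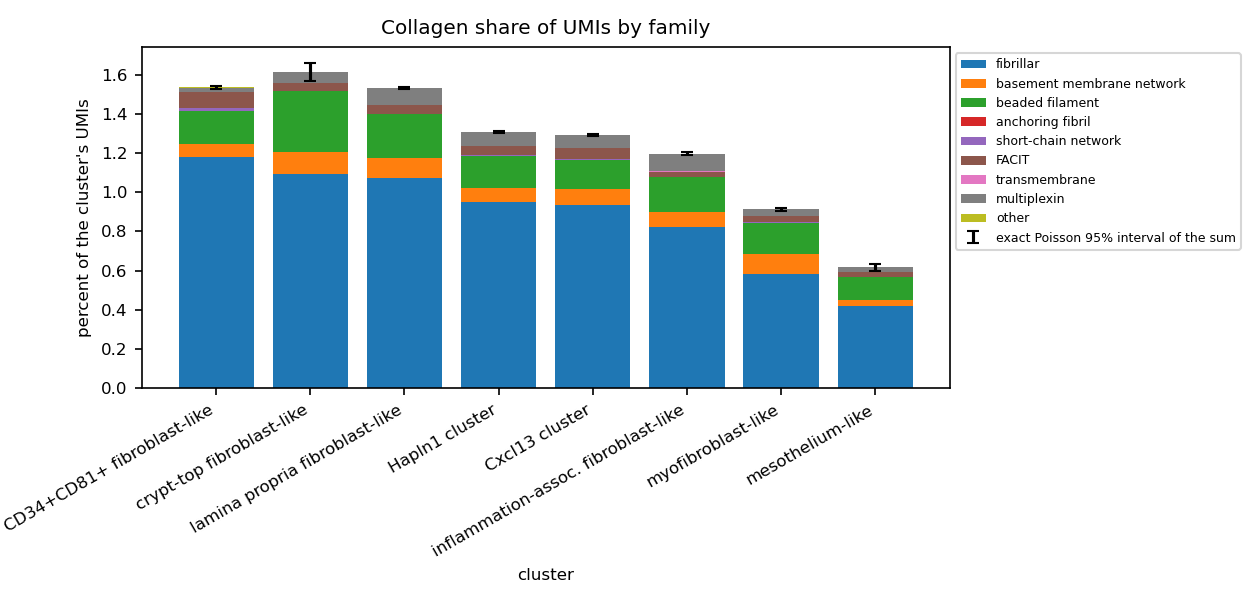
Share of each stromal cluster's UMIs that came from collagen genes (vertical axis, percent), with bars stacked by collagen family. Black error bars are exact Poisson 95% intervals of the sum, and the bars run from 1.62% in the crypt-top fibroblast-like cells to 0.616% in the mesothelium-like cells.

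The collagen share of UMIs differed 2.62-fold across the stromal clusters. It was 1.62% (95% interval 1.57% to 1.66%) in the crypt-top fibroblast-like cells and 1.54% in both the CD34+CD81+ and the lamina propria fibroblast-like cells. The Hapln1 cluster had 1.31%, the Cxcl13 cluster 1.29% and the inflammation-associated fibroblast-like cells 1.20%. Myofibroblast-like cells had 0.913% (0.907% to 0.920%) and mesothelium-like cells 0.616% (0.598% to 0.634%). The intervals of the CD34+CD81+ and lamina propria fibroblast-like cells overlapped, and those of the other neighbours did not. The order of the less stable clusters depended on the random start of the clustering: over 49 other starts the share ran from 1.15% to 1.67% in crypt-top, 0.912% to 1.39% in inflammation-associated and 1.39% to 1.54% in lamina propria fibroblast-like cells, from 1.20% to 1.52% in the Hapln1 and from 1.15% to 1.37% in the Cxcl13 cluster. In myofibroblast-like cells it ran from 0.909% to 0.916%, and it stayed at 1.54% in CD34+CD81+ fibroblast-like and 0.616% in mesothelium-like cells. Barcodes with 1 to 100 UMIs, which hold free RNA, carried a collagen share of 1.28%, close to that of all kept cells, and with free RNA taken away the ratio of the highest to the lowest cluster was 3.34. The mixed non-stromal cluster, whose epithelial and immune cells should make little collagen, had 0.141%. As a plot of the shares by family shows, fibrillar chains led in every stromal cluster, from 0.418% of UMIs in mesothelium-like to 1.18% in CD34+CD81+ fibroblast-like cells.

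Fibrillar collagens form the banded fibrils of the tissue, with type V chains inside them as nucleators. Col1a1 stood at 2752 CPM in the CD34+CD81+ fibroblast-like cells, 2353 in lamina propria and 2345 in crypt-top fibroblast-like cells, 1804 in the Hapln1 cluster, 1798 in the Cxcl13 cluster, 1705 in the inflammation-associated fibroblast-like cells, 946 in myofibroblast-like and 928 CPM in mesothelium-like cells. Myofibroblast-like and mesothelium-like cells thus had the lowest Col1a1 levels, well under those of every fibroblast-like cluster. Col3a1 ran from 5553 CPM in CD34+CD81+ fibroblast-like to 3099.5 CPM in myofibroblast-like and 1965 CPM in mesothelium-like cells, and at least 99.6% of the cells of each stromal cluster had a UMI of it. Col5a1, a nucleator of fibrils, was at 231 CPM in lamina propria fibroblast-like and at 97.4 CPM in myofibroblast-like cells, a lower level by more than the counting intervals. Col27a1, a minor fibrillar collagen known from cartilage, differed in its pattern: it reached 127 CPM (121 to 133) in lamina propria and 113 CPM in inflammation-associated fibroblast-like cells against 34.1 CPM in CD34+CD81+ fibroblast-like cells. Col5a3 stood between 26.6 and 113 CPM in the stromal clusters, and Col24a1 had 134 UMIs in all. Col11a1 and Col11a2, cartilage chains, had 3 and 22 UMIs.

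The network collagens of basement membranes are built from Col4a1 and Col4a2 nearly everywhere, while Col4a3 to Col4a6 occur in specialised membranes. Col4a1 was at 689 CPM in myofibroblast-like, 630.0 in lamina propria fibroblast-like, 524 in the Cxcl13 cluster, 510.1 in crypt-top and 497 in inflammation-associated fibroblast-like cells, 438 in the Hapln1 cluster, 435 in CD34+CD81+ fibroblast-like and 142 CPM in mesothelium-like cells. It was the only one of the 12 most abundant members with its highest level in myofibroblast-like cells. Its partner Col4a2 had its highest value in crypt-top fibroblast-like cells, at 394 CPM. That value came from 119 UMIs, and its first place was not beyond counting error. Type IV chains together made up 0.117% of UMIs there (0.105% to 0.130%). They made up 0.104% (0.102% to 0.106%) in myofibroblast-like and 0.102% (0.101% to 0.104%) in lamina propria fibroblast-like cells. The intervals of crypt-top and myofibroblast-like cells overlapped. Col4a5 reached 202 CPM (155 to 260) in the 56 crypt-top fibroblast-like cells, from 61 UMIs, and stood at 8.88 to 29.2 CPM in the other stromal clusters, a 12.9-fold difference from all other cells. A UMI of Col4a5 was found in 55.4% of the crypt-top fibroblast-like cells and in 5.22% to 22.5% of the cells of the other stromal clusters. After thinning each cell to 3000 UMIs, these shares were 35.4% and 2.51% to 6.86%. Its neighbour on the X chromosome, Col4a6, was at 66.2 CPM (40.5 to 102) in the same cells, at 21.3 CPM in mesothelium-like, 8.68 in the Cxcl13 cluster and 1.41 CPM in myofibroblast-like cells. Col4a3 and Col4a4, the other head-to-head pair, had 25 and 55 UMIs, and 24 of those of Col4a4 came from CD34+CD81+ fibroblast-like cells (2.93 CPM).

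Type VI collagen forms beaded filaments around cells from Col6a1, Col6a2 and the third chain, which is Col6a3 in most tissues. Col6a1 was at 1679 CPM and Col6a2 at 1212 CPM in crypt-top fibroblast-like cells, and in the other stromal clusters they ranged from 699 to 1139.7 and from 421 to 919.5 CPM. The third chain was far less even. Col6a3 stood at 319 CPM (307 to 331) in CD34+CD81+ fibroblast-like, 231 in myofibroblast-like, 199 in crypt-top, 190.0 in lamina propria and 189 in inflammation-associated fibroblast-like cells, 54.2 in the Hapln1 cluster, 50.5 in mesothelium-like cells and 40.9 CPM in the Cxcl13 cluster. Col6a4 and Col6a5, which can take its place, were much less abundant. Col6a4 was at 27.3 CPM (23.8 to 31.3) in myofibroblast-like and 29.8 CPM (13.6 to 56.6, from 9 UMIs) in crypt-top fibroblast-like cells, and at or below 10.5 CPM in the other stromal clusters. Col6a5 was at 26.5 CPM (23.7 to 29.6) in inflammation-associated and 21.1 CPM (18.7 to 23.8) in lamina propria fibroblast-like cells, and at 9.94 CPM or less elsewhere. The chains Col6a3, Col6a4 and Col6a5 thus each had their highest levels in different clusters.

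**Figure D2:**
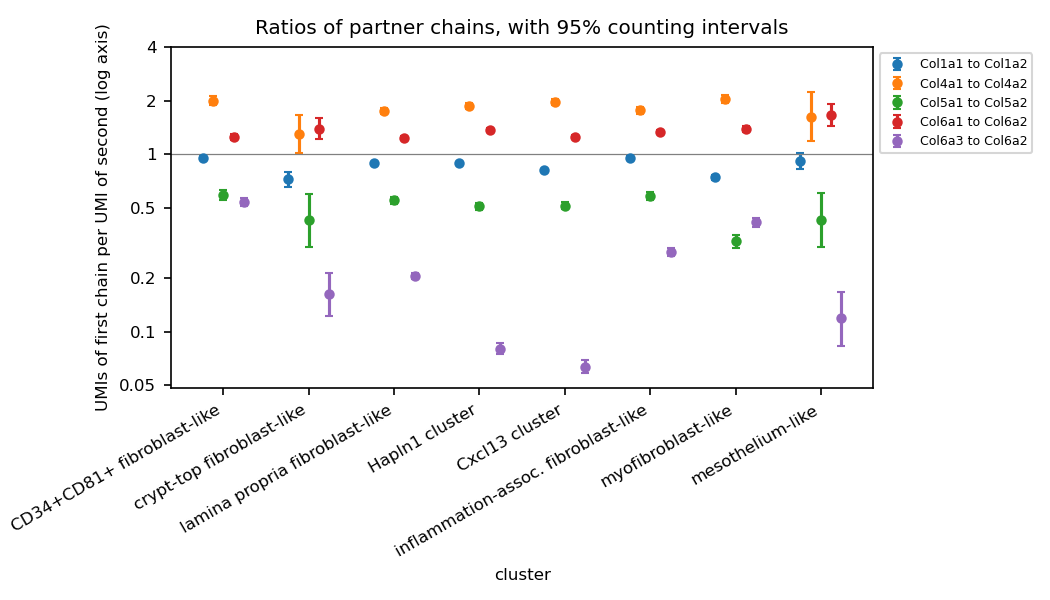
Ratio of UMIs of partner chains in each stromal cluster (vertical log axis, UMIs of the first chain per UMI of the second), with 95% counting intervals. The ratio of Col6a3 to Col6a2 runs from 0.0637 to 0.539, while the other 4 ratios each stay within a narrower band.

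For chains that assemble together, the ratio of transcripts was compared between clusters. Col1a1 to Col1a2 was 0.881 in all kept cells and ran from 0.721 in crypt-top fibroblast-like to 0.956 in inflammation-associated fibroblast-like cells. The ratio of Col4a1 to Col4a2 was 1.87 in all kept cells and 1.29 to 2.04 by cluster. Col5a1 to Col5a2 was 0.519 in all kept cells, 0.590 in CD34+CD81+ fibroblast-like and 0.324 (0.298 to 0.352) in myofibroblast-like cells. Col6a1 to Col6a2 stayed between 1.24 and 1.66. Col6a3 to Col6a2 was 0.215 in all kept cells, but 0.539 (0.514 to 0.566) in CD34+CD81+ fibroblast-like and 0.414 in myofibroblast-like cells against 0.0637 (0.0584 to 0.0694) in the Cxcl13 cluster. Counts of different transcripts also depend on how well each 3' end is captured, so a ratio between clusters can be read and its distance from 1 cannot.

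FACITs are collagens that attach to the surface of fibrils. Col14a1, which binds fibrils and limits their width, was at 689.8 CPM (672 to 708) in CD34+CD81+ fibroblast-like, 292 in the Cxcl13 cluster, 210.1 in the Hapln1 cluster, 158 in mesothelium-like, 143 in lamina propria fibroblast-like, 58.6 in inflammation-associated fibroblast-like, 44.5 in myofibroblast-like and 16.6 CPM (5 UMIs) in crypt-top fibroblast-like cells. The CD34+CD81+ fibroblast-like cells stood 4.23-fold above all other cells. Of their cells 90.3% had a UMI of Col14a1, against 17.2% of the myofibroblast-like cells. Col12a1, a FACIT of tissue under tension, was at 46.3 CPM in CD34+CD81+ fibroblast-like cells and at 45.2 CPM in mesothelium-like cells, and at 114 to 215 CPM in the other stromal clusters. In CD34+CD81+ fibroblast-like cells, where Col14a1 was highest, Col12a1 was thus low. Col16a1 was at 46.5 to 126 CPM. Col22a1 had 147 UMIs, with 4.76 CPM in inflammation-associated fibroblast-like and 4.98 CPM in myofibroblast-like cells.

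Col15a1 and Col18a1, the multiplexins, basement membrane proteoglycans whose ends can be released as endostatin-like fragments, had different patterns. Col15a1 was highest in the Cxcl13 cluster (451 CPM, 440 to 462) and the Hapln1 cluster (426), followed by lamina propria (365) and inflammation-associated fibroblast-like cells (185). It was at 142 CPM in myofibroblast-like, 135 in CD34+CD81+ fibroblast-like, 69.6 in crypt-top fibroblast-like and 47.9 CPM in mesothelium-like cells. Col18a1 was highest in inflammation-associated fibroblast-like cells (723 CPM, 708 to 738), at 490.2 CPM in crypt-top and 482 in lamina propria fibroblast-like cells, and lowest in CD34+CD81+ fibroblast-like cells (106 CPM). Both stood below their level in all kept cells in CD34+CD81+ fibroblast-like cells, where Col14a1 was highest.

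Col8a1, a short-chain network collagen of vessel walls and basement membranes, was at 148 CPM (140 to 157) in CD34+CD81+ fibroblast-like, 79.2 in the Hapln1 cluster, 53.3 in myofibroblast-like and 52.7 CPM in the Cxcl13 cluster. It stood at 15.6 CPM in inflammation-associated, 14.6 in mesothelium-like and 10.7 CPM in lamina propria fibroblast-like cells, and had no UMI in the crypt-top fibroblast-like cells, where 3 counts would be 9.94 CPM. Its partner Col8a2 had 69 UMIs in all, with 13.3 CPM (10 UMIs) in mesothelium-like and 3.55 CPM (29 UMIs) in CD34+CD81+ fibroblast-like cells. Among the transmembrane collagens Col23a1 was at 3.99 to 14.1 CPM, and Col13a1, which sits at adhesion sites, was at 6.80 CPM (5.39 to 8.46) in inflammation-associated fibroblast-like cells. Col28a1 stood at 10.8 CPM (9.18 to 12.7) in the Cxcl13 cluster and 8.07 in lamina propria fibroblast-like cells, and at 0 to 3.18 CPM in the other stromal clusters. Col7a1, the anchoring fibril chain that epithelial cells and fibroblasts make in skin, had 56 UMIs in all.

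**Figure D3:**
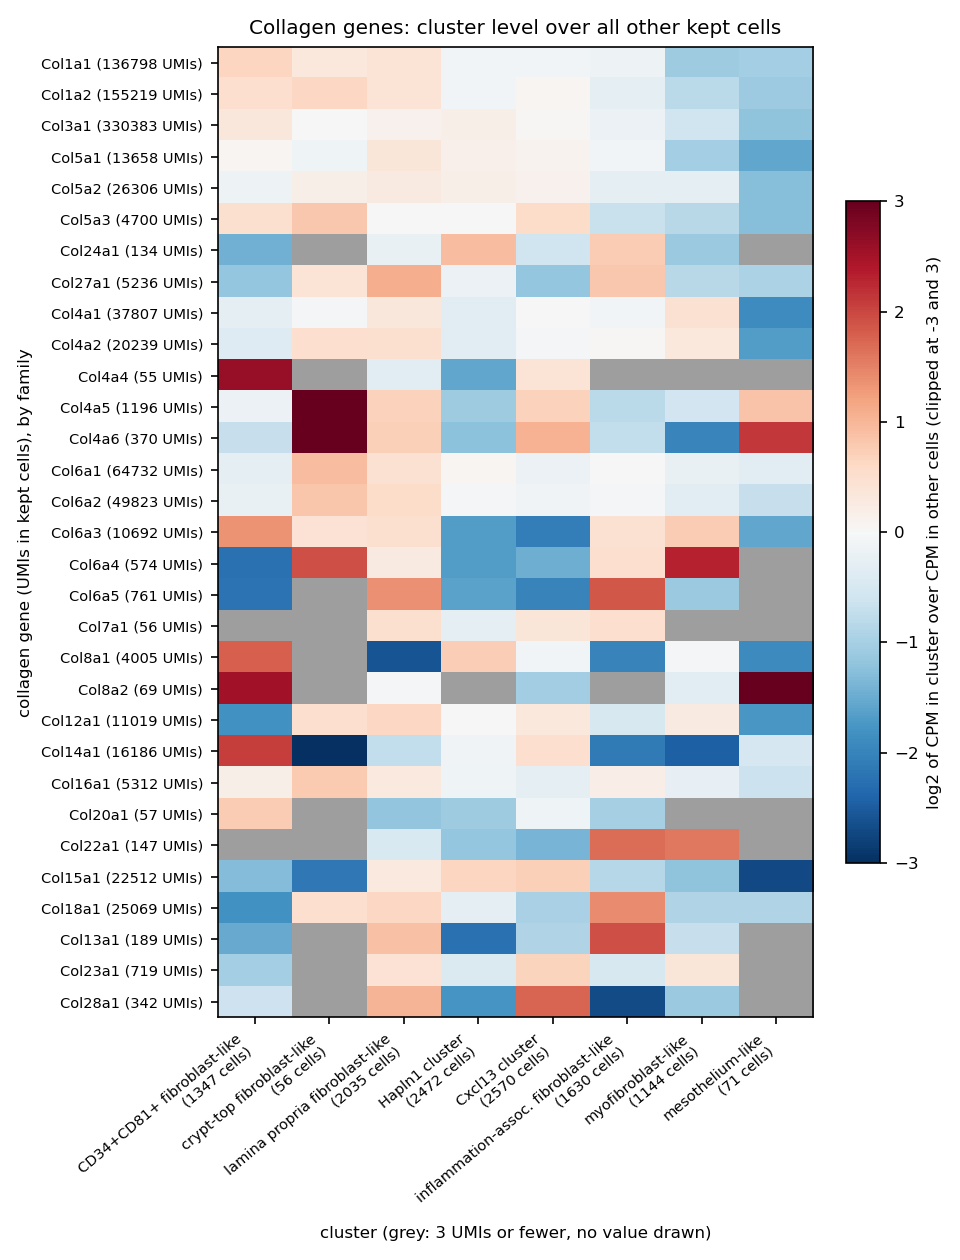
Log2 ratio of the CPM of each collagen gene with at least 50 UMIs in a stromal cluster to its CPM in all other kept cells, with red for higher and blue for lower, clipped at -3 and 3, and grey where the cluster held 3 UMIs or fewer. Col14a1 and Col8a1 are red in CD34+CD81+ fibroblast-like cells, Col4a5 and Col4a6 in crypt-top fibroblast-like cells, and Col6a4 in myofibroblast-like cells.

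Read by cluster, 2-fold calls of the 31 members against all other cells are given beside the share of all genes tested. In CD34+CD81+ fibroblast-like cells 5 were higher (Col4a4, Col6a3, Col8a1, Col8a2 and Col14a1), or 16.1%, where 4.85% of all genes tested were, and 11 were lower, where 11.3% of all genes were. Inflammation-associated fibroblast-like cells had 4 higher (Col6a5, Col13a1, Col18a1 and Col22a1, against 3.49% of all genes) and 6 lower (7.14%). In lamina propria fibroblast-like cells Col6a5, Col27a1 and Col28a1 were higher, which is 3 of 31 against 1.91% of all genes, and Col8a1 and Col20a1 were lower (6.88%). The Cxcl13 cluster had 2 higher, Col28a1 at 3.34-fold and Col4a6 at 2.05-fold (0.856% of all genes), and 6 lower (9.40%). In the Hapln1 cluster none was 2-fold higher (0.555%) and 11 were lower (8.90%). Col24a1 (1.90-fold, from 48 UMIs), Col8a1 (1.66-fold) and Col15a1 (1.55-fold) came nearest to the higher call.

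Myofibroblast-like cells had 2 members higher, Col6a4 at 4.95-fold and Col22a1 at 3.00-fold (6.33% of all genes), and 11 lower (11.2%). The lower members included Col1a1, Col5a1, Col14a1 and Col15a1. Crypt-top fibroblast-like cells had 5 higher (9.73%): Col4a5 at 12.9-fold, Col4a6 at 13.7-fold, Col6a4 at 3.83-fold, and Col13a1 and Col22a1 from 2 UMIs each. Another 8 were lower there (25.2%), but Col4a4, Col7a1, Col8a2 and Col20a1 among them had at most 0.950 CPM in other cells, where 1 UMI in this cluster is 3.31 CPM, so their count of 0 carries no information. That of Col28a1, also 0 and at 4.69 CPM in all kept cells, carries little. Mesothelium-like cells had Col4a6 and Col8a2 higher (10.9%) and 19 lower (20.7%). Of the lower members, Col13a1, Col22a1 and Col24a1 had no UMI there, at 2.59, 2.02 and 1.84 CPM in all kept cells. There 1 UMI is 1.33 CPM, so these calls, and that of Col20a1 (0.782 CPM in all kept cells), carry little or no information. Among members with at least 50 UMIs in this cluster, Col6a1 and Col14a1 were lowered least, and neither was called. They stood at 0.786 and 0.711 of the level in other cells. In the mixed non-stromal cluster Col20a1 alone was higher (15.8%), at 24.1 CPM from 17 UMIs against 0.554 CPM in other cells, and 28 were lower (32.5%). The median log2 ratio over the 31 members was 0.52 in crypt-top (0.17 over all genes) and 0.40 in lamina propria fibroblast-like cells (0.04). It was -0.65 in myofibroblast-like (0.02) and -1.09 in mesothelium-like cells (-0.05).

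Which cells fell into a cluster depended on the random start for part of the clusters. Over 49 other starts the CD34+CD81+ fibroblast-like, myofibroblast-like and mesothelium-like clusters shared at least 0.990 of their cells, as the Jaccard index, and the higher calls of the former pair were made in all 49. The Hapln1 cluster shared a median of 0.465 and the inflammation-associated fibroblast-like cluster 0.580. In the Hapln1 cluster Col24a1 was 2-fold higher in 22 starts, Col8a1 in 6 and Col6a5 in 11, although Col6a5 counted as lower with the start used and in 24 others, and Col22a1 was lower in 13. In the inflammation-associated fibroblast-like cells, Col6a5 was 2-fold higher in 43 starts, Col18a1 in 40, Col13a1 in 39 and Col22a1 in 34. Col28a1 was 2-fold higher in the Cxcl13 cluster in 44 starts and in lamina propria fibroblast-like cells in 7, so the call in the latter rests on the start used. The crypt-top fibroblast-like cells stayed apart, with Col4a5, Col4a6 and Col6a4 2-fold higher, in 44 starts. Markers of other cell types also moved with clusters: 6 B or plasma cell genes summed to 668 CPM in the Cxcl13 cluster and 489 CPM in lamina propria fibroblast-like cells, the 2 clusters with Col28a1 calls, and to 70.5 to 166 CPM in the other stromal clusters. Their part in the Col28a1 level was not tested. The 8 markers listed for myofibroblast or smooth muscle, which gave the myofibroblast-like cluster its name, do not tell these types apart. They summed to 23961 CPM in myofibroblast-like, 4044 CPM in crypt-top fibroblast-like and 316 to 1028 CPM in the other stromal clusters. Their part in the Col6a4 level was not tested either.

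The genes that make and handle collagen were read from 3 lists. Of 20 enzymes and chaperones that act inside the cell, all 20 had at least 50 UMIs. Serpinh1, the collagen chaperone HSP47, was at 1285 CPM in myofibroblast-like and at 1754 to 2299 CPM in the other stromal clusters. P3h2, a prolyl hydroxylase with a preference for type IV collagen, was at 53.5 CPM in myofibroblast-like cells, 8.78-fold above all other cells, and was the 1 of 20 that was 2-fold higher there (6.33% of all genes), while 2 of 20, P3h3 and Crtap, were lower (11.2%). P4ha3 alone was higher in the Cxcl13 cluster (4.54-fold, against 0.856% of all genes), Colgalt2 alone in lamina propria fibroblast-like cells (5.54 CPM, 1.91%), and P3h2 and Plod2 in crypt-top fibroblast-like cells (9.73%). None of the 20 was higher in the Hapln1 (0.555%), inflammation-associated (3.49%) or CD34+CD81+ fibroblast-like clusters (4.85%).

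Of 13 genes for propeptide cleavage and crosslinking, 11 had at least 50 UMIs. Pcolce2, an enhancer of procollagen cleavage, was at 223 CPM in CD34+CD81+ fibroblast-like cells and 2.04 CPM in all other cells, 109-fold apart, and was the 1 of 11 that was 2-fold higher in that cluster (4.85% of all genes). Its relative Pcolce ran from 501 CPM in myofibroblast-like to 1362 CPM in lamina propria fibroblast-like cells. Lox, which starts crosslinks between fibrils, was at 141 CPM in inflammation-associated fibroblast-like cells, 2.47-fold above other cells, and Adamts3, a remover of amino-terminal propeptides, was 3.47-fold above. In myofibroblast-like cells 5 of the 11 were lower (11.2% of all genes) and none was higher (6.33%).

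Of 11 collagen receptors and uptake genes, 8 had at least 50 UMIs. Itga1, the integrin chain that binds type IV collagen well, was at 194 CPM in myofibroblast-like and 172 CPM in crypt-top fibroblast-like cells, and at 13.3 to 48.2 CPM in the other stromal clusters. Itga11, the fibroblast integrin for fibrillar collagen, was at 39.9 CPM in CD34+CD81+ fibroblast-like cells, 2.04-fold above other cells, and at 36.4 CPM in crypt-top fibroblast-like cells. Myofibroblast-like cells, with the highest Col4a1 level, thus also held the highest levels of P3h2 and Itga1 among the stromal clusters. For Itga1 the crypt-top fibroblast-like cells were close (194 and 172 CPM). Col4a2, the partner of Col4a1, however had its highest value in crypt-top fibroblast-like cells (394 CPM from 119 UMIs), a place not beyond counting error. The CD34+CD81+ fibroblast-like cells, with the highest Col1a1 and Col3a1 levels, held the highest Pcolce2 level. Their Itga11 level was close to that of the crypt-top fibroblast-like cells (39.9 and 36.4 CPM). These are levels in 1 library, and no relation between the genes was tested.

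Open chromatin at the collagen genes was counted as peaks that overlap a gene body with 10 kb on both sides. The 4 lists of all peaks held 177054 (MRISC), 143411 (CD34 SP), 216805 (CD138) and 179351 peaks (Myofibroblast), and depth behind them is unknown. In the windows of the 44 genes, which merge into 40 stretches of 6.18 Mb, MRISC had 984 peaks, CD34 SP 892, CD138 830 and Myofibroblast 714. Per Mb this was 159, 144, 134 and 116, against 97.9, 82.5, 109 and 92.4 over the windows of all protein-coding genes. Per 100000 peaks of its list, CD34 SP had 622 and MRISC 556 at collagen genes, and Myofibroblast had 398 and CD138 383. Collagen genes therefore took a larger part of the MRISC and CD34 SP lists. Each population came as 1 list from 2 libraries, so the spread between libraries is unknown and no difference between populations was tested. The pairs Col4a1 and Col4a2, Col4a3 and Col4a4, Col4a5 and Col4a6, and Col9a1 and Col19a1 share part of their windows, and peaks there count for both. Windows also reach genes that are no collagens.

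**Figure D4:**
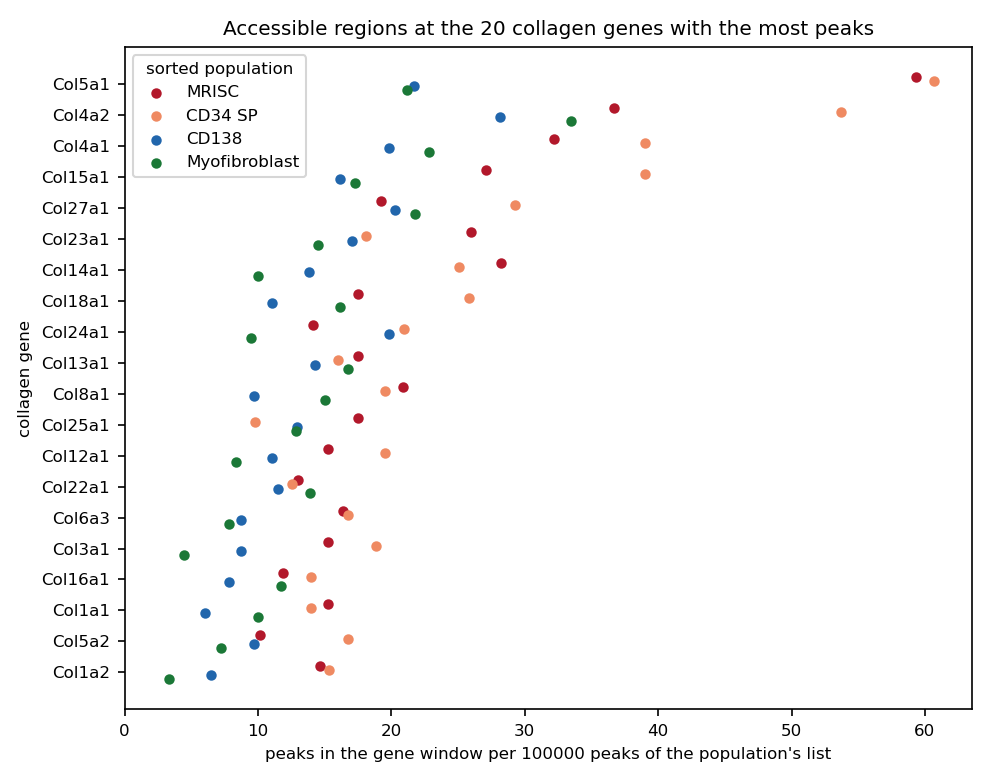
Peaks in the window of each of the 20 collagen genes with the most peaks, per 100000 peaks of the population's list (horizontal axis), with 1 point per sorted population. Col5a1 lies near 60 in MRISC (59.3) and CD34 SP (60.7) and near 21 in CD138 (21.7) and Myofibroblast (21.2).

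Col5a1 had the most peaks: MRISC had 105, CD34 SP 87, CD138 47 and Myofibroblast 38 (59.3, 60.7, 21.7 and 21.2 per 100000). Col4a2 had 65, 77, 61 and 60 in the same order, and Col4a1 had 57, 56, 43 and 41. The counts of the head-to-head type IV pair differed less between populations than those of Col5a1. Col15a1 had 48, 56, 35 and 31 peaks, Col27a1 34, 42, 44 and 39, and Col23a1 46, 26, 37 and 26. Col14a1 had 50, 36, 30 and 18 peaks, and Col18a1 had 31, 37, 24 and 29. Next were Col24a1 (25, 30, 43 and 17), Col13a1 (31, 23, 31 and 30), Col8a1 (37, 28, 21 and 27) and Col25a1 (31, 14, 28 and 23). Col25a1 had 96 peaks over the 4 lists and 6 UMIs in the single cells, and Col24a1 115 peaks and 134 UMIs, so many peaks did not go with a high level in every member. At the other end, Col10a1 had no peak in any list, Col9a2 had 2, 1, 5 and 4, and Col4a5 had 3, 3, 4 and 3.

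The genes of the most abundant fibrillar chains, Col1a1, Col1a2 and Col3a1, had more peaks in MRISC and CD34 SP. Col1a2 had 26, 22, 14 and 6 peaks in that order, so that per 100000 peaks CD34 SP stood 4.59-fold and MRISC 4.39-fold over Myofibroblast. Col3a1 had 27, 27, 19 and 8 peaks, 4.22-fold and 3.42-fold over Myofibroblast. Col1a1 had 27, 20, 13 and 18 peaks and was 2.54-fold over CD138 in MRISC. Myofibroblast held the fewest peaks at Col1a2 and Col3a1, and CD138 the fewest at Col1a1.

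Calls of at least 2-fold per 100000 peaks were made where a pair of lists together held at least 10 peaks at a gene. Between MRISC and CD34 SP few members differed, and few genes of any kind did. Of 39 members tested none was 2-fold over in MRISC (4.98% of all genes tested). There Col6a6 and Col26a1 came nearest at 1.89-fold and Col25a1 reached 1.79-fold. Only Col6a5 (2.22-fold) and Col28a1 (2.01-fold) were over in CD34 SP, which is 5.13% of members against 5.10% of all genes. Col5a2 was next at 1.65-fold. CD34 SP was over CD138 at 11 of 39 members (18.9% of all genes) and over Myofibroblast at 12 of 39 (16.3%). MRISC was over CD138 at 5 of 41 members, which is 12.2% against 12.5% of all genes, and over Myofibroblast at 8 of 41 (11.9%). The former comparison depended on the peaks used: with peaks above the median score 8 of 35 members were over, against 9.10% of all genes. The largest ratios over CD138 were those of Col5a1 (2.74-fold in MRISC, 2.80-fold in CD34 SP), Col1a1 and Col1a2 in MRISC (2.54-fold and 2.27-fold), and Col15a1 and Col1a2 in CD34 SP (2.42-fold and 2.38-fold). Over Myofibroblast, Col14a1 in MRISC (2.81-fold) and Col4a6 in CD34 SP (3.28-fold) followed Col1a2 and Col3a1.

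In the opposite direction, and between CD138 and Myofibroblast, few genes of any kind were called. By comparison the share ran from 0% to 5.13% of members and from 4.54% to 8.04% of all genes. No member was 2-fold over MRISC in CD138 (5.79% of all genes) or in Myofibroblast (5.96%), where Col19a1 (1.81-fold) and Col28a1 (1.97-fold) came nearest. Col28a1 and Col11a1 followed in CD138, and Col11a1 and Col8a2 in Myofibroblast. Col19a1, with 20 peaks in CD138 against 5 in CD34 SP, was the 1 member over CD34 SP in CD138 (2.65-fold, 7.28% of all genes), with Col26a1 at 1.98-fold and Col25a1 at 1.32-fold behind it. Myofibroblast was over CD34 SP at Col26a1 (2.27-fold) and Col6a6 (2.13-fold), 2 of 39 (8.04%), and Col7a1 was at 1.60-fold. Between the other pair, CD138 was over at Col19a1 (2.36-fold) and Col24a1 (2.09-fold), with Col3a1 at 1.96-fold (4.54% of all genes). Myofibroblast was over CD138 at Col7a1 (2.90-fold) and Col8a2 (2.15-fold), with Col1a1 at 1.67-fold (7.89%). The windows of Col7a1 and Col8a2 also hold 3 and 2 other genes, and with peaks in the gene body only 1 member was called. The median ratio of CD34 SP to CD138 over members was 1.74, and 1.30 over all genes.

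Peaks of the 4 lists merged into 2001 regions at the collagen genes. Of these 68.1% were held by 1 population (74.8% over all gene windows) and 10.2% by all 4 (9.10%). MRISC and CD34 SP alone shared 131 regions, or 6.55% against 3.94% over all windows, while CD138 and Myofibroblast alone shared 14, or 0.700% against 1.22%. Col5a1 held 19 of the 131, Col14a1 11, Col15a1 10, and Col4a2 9. Of the MRISC peaks 53.8% overlapped a CD34 SP peak by at least 1 base (49.4% over all gene windows), and 28.05% a Myofibroblast peak (29.02%). Of the CD34 SP peaks 55.9% overlapped an MRISC peak (55.8%) and 40.9% a CD138 peak (46.7%). Of the CD138 peaks 51.7% overlapped a CD34 SP peak (40.5%) and 47.7% an MRISC peak (38.1%). For Myofibroblast peaks these shares were 47.1% (36.2%) and 44.5% (35.1%). The population-specific lists held 41.1% of the CD138 peaks at collagen genes, against 52.4% over all gene windows and 58.4% of all its peaks. For Myofibroblast this was 46.1% against 56.5% and 62.9%, and for MRISC 39.2% against 43.8% and 46.6%. For CD34 SP it was 34.3% against 34.2% and 34.6%. None of these differences was tested. From 60.3% to 67.8% of the collagen peaks lay in introns.

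**Figure D5:**
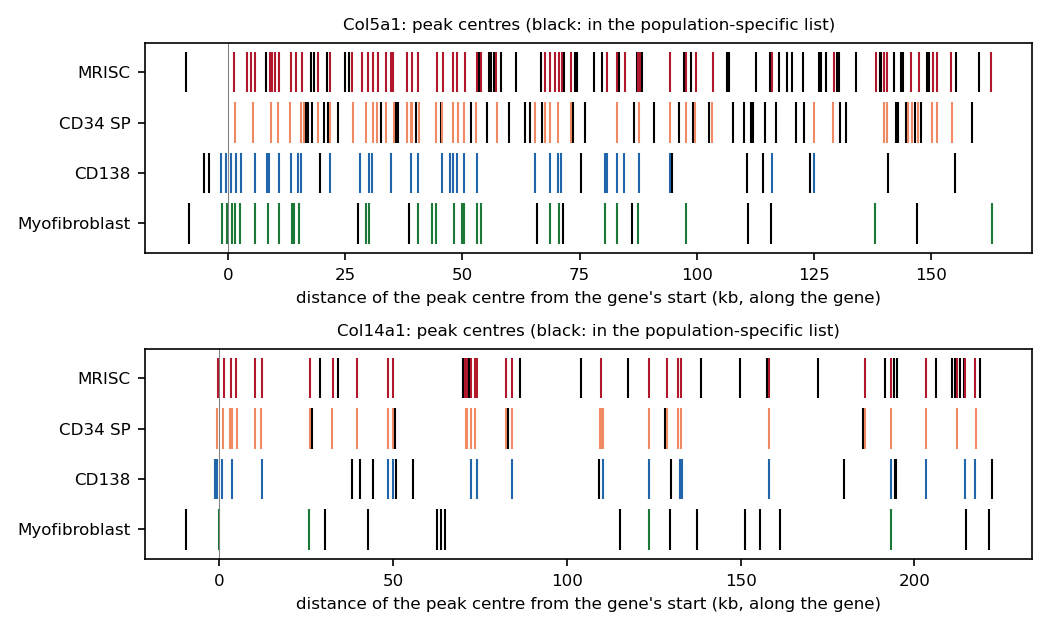
Peak centres along Col5a1 and Col14a1 in each sorted population, as distance from the gene's start in kb (horizontal axis), with black lines for peaks of the population-specific list and coloured lines for the others. MRISC and CD34 SP carry more lines along the body of Col5a1 (105 and 87) than CD138 and Myofibroblast (47 and 38).

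Regions open in MRISC and CD34 SP and in neither other population were inspected in the introns of Col5a1 and Col8a1. Both genes are among the members 2-fold over CD138 in MRISC and in CD34 SP, but at Col8a1 CD34 SP was only 1.30-fold over Myofibroblast. For each gene, the strongest MRISC peak over such a region outside promoters was taken. The 300 bases around its centre are shown on the plus strand of mm10, to let the reader see what such a region holds. The Col5a1 region (chr2:27953883-27954182) lies in a peak of 628 bases 67608 bases after the gene's start, at the 84.8th score percentile of the MRISC list. The Col8a1 region (chr16:57698764-57699063) lies in a peak of 468 bases, 55823 bases after the start, at the 85.1st percentile. Capitals mark words of the 7 searched, which are named further on.
Col5a1 intron: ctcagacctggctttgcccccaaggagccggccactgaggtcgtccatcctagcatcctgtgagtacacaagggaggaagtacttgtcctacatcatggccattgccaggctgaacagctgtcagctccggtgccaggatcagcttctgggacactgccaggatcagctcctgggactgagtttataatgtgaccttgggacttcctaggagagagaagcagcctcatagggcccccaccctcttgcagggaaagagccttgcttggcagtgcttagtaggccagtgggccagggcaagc
Col8a1 intron: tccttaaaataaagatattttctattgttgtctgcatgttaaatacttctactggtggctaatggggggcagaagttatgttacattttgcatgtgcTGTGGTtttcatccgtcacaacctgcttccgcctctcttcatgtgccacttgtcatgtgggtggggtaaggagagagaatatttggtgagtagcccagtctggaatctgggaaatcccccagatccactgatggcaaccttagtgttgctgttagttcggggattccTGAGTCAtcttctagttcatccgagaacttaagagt
Only the Col8a1 region held any of the words, a RUNX word (TGTGGT) from base 98 and an AP-1 word (TGAGTCA) from base 265. That the Col5a1 region held none says only that these letters are not in its 300 bases.

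Promoters were open, with a peak within 1 kb of an annotated start, for 38 of the 44 members in MRISC (68.6% of all protein-coding genes). CD34 SP had 37 open (66.3%), CD138 36 (69.8%) and Myofibroblast 35 (66.8%). In all 4 populations 31 members were open (59.3% of all genes), and their median level in the single cells was 71.8 CPM. The 10 open in 1 to 3 populations had a median of 0.309 CPM. Col9a1, Col10a1 and Col28a1 were open in none (22.2%). Col28a1 had 342 UMIs all the same. Col4a3, Col4a4 and Col6a5 lacked an open promoter in Myofibroblast alone, Col20a1 and Col6a6 were open in MRISC alone, and Col11a1 was open in MRISC and Myofibroblast. Col2a1, without a UMI in the single cells, was open in all 4.

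The bases before the start are shown for 3 members: Col3a1, the most abundant, and the X-linked neighbours Col4a5 and Col4a6, which were both high in crypt-top fibroblast-like cells. They come from RefSeq on GRCm38.p6 and are written 5' to 3' on the strand of the gene, with Col3a1 at chr1:45311288-45311537 (plus), Col4a5 at chrX:141475169-141475384 (plus, 216 bases up to the GENCODE exon, which begins before the RefSeq start) and Col4a6 at chrX:141474077-141474326 (minus). Capitals mark TATAAA in Col3a1, the sequence CCAAT in Col4a5, and in Col4a6 the GC box word GGGCGG as its reverse complement.
Col3a1 promoter: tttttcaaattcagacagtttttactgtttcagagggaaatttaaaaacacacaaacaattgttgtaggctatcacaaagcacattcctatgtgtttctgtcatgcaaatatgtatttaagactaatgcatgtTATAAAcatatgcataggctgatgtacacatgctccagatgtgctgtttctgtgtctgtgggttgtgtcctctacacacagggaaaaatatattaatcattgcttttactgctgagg
Col4a5 promoter: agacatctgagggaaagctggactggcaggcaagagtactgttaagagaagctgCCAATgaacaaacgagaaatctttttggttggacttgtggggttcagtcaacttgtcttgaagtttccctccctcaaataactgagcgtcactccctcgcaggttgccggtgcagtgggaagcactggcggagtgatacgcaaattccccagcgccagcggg
Col4a6 promoter: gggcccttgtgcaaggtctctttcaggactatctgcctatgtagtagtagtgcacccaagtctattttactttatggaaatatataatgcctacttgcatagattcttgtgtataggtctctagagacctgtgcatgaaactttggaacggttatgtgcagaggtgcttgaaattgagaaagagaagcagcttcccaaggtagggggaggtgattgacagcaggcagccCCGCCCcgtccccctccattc
The TATAAA of Col3a1 begins 117 bases before the start, and a peak lay over this stretch in all 4 populations, at score percentiles of 85.3 to 94.0 within the lists. The CCAAT of Col4a5 begins at base 55 of the printed stretch, 196 bases before the RefSeq start, and lay under a peak in MRISC and CD34 SP, while the CD138 and Myofibroblast peaks began between it and the start. Over the printed Col4a6 stretch only CD34 SP had a peak. The starts of these X-linked genes are 1308 bases apart and point away from each other, so peaks between them lie near both. The RefSeq table held 38 promoters of 35 members. Among them CCAAT occurred in 34.2% (33.8% of all 32851 promoters, in the 250 bases before the start on both strands), TATAAA in 13.2% (12.4%), GGGCGG in 57.9% (32.7%) and the AP-1 word TGANTCA in 2.63% (6.75%). A match is a description of letters, not of a bound site.

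Words of 7 factor families were counted in the central 200 bases of the peaks, on both strands: AP-1 TGANTCA, RUNX TGTGGT, TEAD GGAATG, CEBP TTGCNNAA, the GC box GGGCGG, and the palindromic EBF and NF1 words. These gave 28 comparisons of the collagen peaks with the whole list of a population, with Wilson 95% intervals. The EBF word stood in 1.52% of the MRISC collagen peaks (0.926% to 2.50%, 0.774% of the list) and 1.57% of those in CD34 SP (0.937% to 2.62%, 0.660% of the list), from 15 and 14 peaks. In CD138 and Myofibroblast it stood in 0.843% and 0.840%, with intervals that held the share of the list. The TEAD word was in 15.7% of the Myofibroblast collagen peaks (13.2% to 18.5%) and 12.0% of the list. The AP-1 word was in 17.6% of the CD34 SP peaks (15.2% to 20.2%), with 15.2% in the list just outside the interval, and in 13.1% of those of MRISC (12.6% of the list), 11.8% of those of CD138 (9.91%) and 10.6% of those of Myofibroblast (9.43%), with intervals that held the list's share. GC boxes were in 6.17% of the CD34 SP collagen peaks (4.77% to 7.94%) against 10.2% of the list. In MRISC they were in 7.11% (5.67% to 8.89%) against 9.18%, and in CD138 and Myofibroblast the intervals held the list's share. Outside promoters the GC box shares were 3.58% against 5.43% in CD34 SP and 5.15% against 5.02% in MRISC. Peaks of 1 gene are not independent, so these intervals cover counting error only.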

How the data were processed

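The 44 collagen genes and the lists of markers and pathway genes were chosen with earlier results of these data known. The deposited single-cell table holds counts of UMIs, raw and whole, for each barcode. The submitters' processing notes name bcl2fastq, Cell Ranger and Seurat with mm10 for it, with no role, and Cell Ranger was 3.0.0 per the file headers. The deposited peak lists give a score per peak without saying what it means, so scores served only to rank peaks within a list. For these the notes name bcl2fastq and bedtools, with mm10. Which peak caller was used, and how 2 libraries became 1 list, is likewise not given in the sources used here.

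Barcodes needed 500 genes and no more than 10% of UMIs from mitochondrial genes, which 11376 of 11484 met (2704 to 11585.8 UMIs from the 5th to the 95th percentile). Doublets were not removed. Clusters came from Leiden (leidenalg 0.10.2, resolution 0.5, best quality of 50 starts) on a graph of 15 neighbours in 30 principal components of the log-scaled counts of 2000 variable genes, members left out. A cluster was named with at least 3 markers 2-fold above other cells. UMIs were summed per cluster and given as CPM with exact Poisson 95% intervals, chain ratios and shares of cells have exact binomial ones, and all cover counting error only. A gene was called higher or lower at 2-fold with at least 50 UMIs in kept cells. Free RNA in a cluster was estimated as its level of epithelial markers relative to that in 546978 barcodes of 1 to 100 UMIs.

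Gene models were those of GENCODE vM21, whose assembly GRCm38 is that of mm10. A peak counted for a gene when it overlapped its window by 1 base, and a promoter was 1 kb around a start. The sequence of 1 further intron region is not reported here. Each population is 1 list and the single-cell part 1 library, so no test was run. Named members are the 12 with the most UMIs, 2 per cluster, the 12 with the most peaks and 3 per direction of each pair of populations. Interval counting and calls were tested on simulated data, beside bedtools 2.31.1. Alternatives changed the windows, peak sets, overlap, fold, free RNA and clustering. Analyses used Python 3.11.15 with scipy 1.17.1 and pandas 2.3.3.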

Additional observations from a re-analysis of the deposited data

Results flagged for a closer look

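Collagen transcripts were also counted in data outside the comparisons, the 546978 barcodes with 1 to 100 UMIs, most of which hold no cell. Of their 4324206 UMIs 1.28% came from collagen genes, against 1.30% in the kept cells. Col3a1 was at 4501 CPM there (4531 CPM in kept cells), Col1a1 at 1663 CPM (1876) and Col1a2 at 2228 CPM (2129). Col6a4 was at 14.3 CPM there against 7.87 CPM in kept cells, and Col4a5 at 24.3 against 16.4 CPM.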

How the results depend on the processing

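With no replicates, a value counts as moved when it left its 95% counting interval and a count when it changed by more than 1.5 times. The ratio of the highest to the lowest stromal collagen share was 2.62, and 3.34 with free RNA taken away and 2.47 as a mean of the cells' own shares. With free RNA taken away Col1a1 to Col1a2 went from 0.881 to 0.898, Col6a1 to Col6a2 from 1.30 to 1.28 and Col6a3 to Col6a2 from 0.215 to 0.206 (0.210 without the cells above the 95th percentile of UMIs). Members 2-fold over CD138 in MRISC went from 5 of 41 (12.5% of all genes) to 3 of 43 with 50 kb on both sides (5.72%) and to 8 of 35 with peaks above the median score (9.10%), and were 7 of 41 by covered bases (6.58%). Those over Myofibroblast in MRISC went from 8 of 41 (11.9%) to 5 of 42 with 50 kb (5.55%), and those over CD138 in CD34 SP from 11 of 39 (18.9%) to 7 of 32 with peaks above the median score (8.89%) and 7 of 39 by covered bases (7.08%). With peaks above the median score, regions in all 4 populations went from 10.2% to 16.1%, those in MRISC and CD34 SP alone from 6.55% to 8.05%, and those in 1 population from 68.1% to 55.8%. Requiring an overlap of 50% of both peaks took MRISC peaks found in CD34 SP from 53.8% to 33.3% and CD34 SP peaks found in MRISC from 55.9% to 36.9%. Of the word shares, the GC box in MRISC turned from 0.775 of the list's share to 1.03 in peaks outside promoters. The cause of these changes was not tested. Of the other alternatives, 47 left a main result and 113 a single value or gene within its limits, and 58 moved a single value or gene. The partitions from 49 other random starts were added after seeing the data. No paired analysis was possible because each population came as 1 list and the single cells as 1 library. Depth behind the peaks is unknown, and a member with few UMIs, such as Col13a1 or Col22a1 in the 56 crypt-top fibroblast-like cells, cannot be placed more closely than its interval.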

Other observations

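Finer clusters at resolution 1, made without the collagen genes, placed several members in smaller groups of cells. Col6a5 was at 35.7 CPM, 4.36-fold above other cells, in 829 cells led by Cemip, Lipg, Nxf7 and Mmp10, and Col27a1 at 160 CPM (2.38-fold) in 613 cells led by Saa3, Hp and Mmp10. Col18a1 was at 739 CPM in 815 cells led by Ces1f and Chst8 and at 662 CPM in the 613 cells. Col28a1 was at 11.6 CPM (2.97-fold) in 1363 cells led by Cxcl13 and Frmpd4. Col4a5 was at 197 CPM in 58 cells led by Wif1, Sox6 and Bmp3 and at 29.9 CPM in 1464 cells led by Kcnk2 and Tnc, and Col6a4 stood at 32.2 CPM (5.38-fold) in 896 cells led by Actg2 and Cnn1.

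Across the 44 members, the level in all kept cells and the number of peaks per length of window went together, with Spearman's rho highest for CD34 SP (0.755), then MRISC (0.708), CD138 (0.687) and Myofibroblast (0.444). This is a description over genes, which are not independent replicates: all 4 values share the same single-cell levels, and neighbouring members share windows.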
